A study of Mus musculus with 3 samples.

Results

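The genes described here are 7 genes by which microglia, the resident macrophages of the brain, are commonly recognised: Csf1r, C1qa, C1qb, C1qc, Cd68, Cx3cr1 and Aif1. They were chosen by name, and each was represented by the probe sets that the platform annotation maps to that gene alone. All 7 genes had a probe set, 10 in all, of 10833 probe sets with 1 gene symbol and 8251 named genes. Of the probe sets that the annotation maps to several genes, 0 named any of the 7.

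The tissue was hippocampal area CA1, taken from young males of the inbred mouse strain C57BL/6J, and the assay was a short-oligonucleotide array of total RNA. The 3 arrays formed 1 group, animals given context plus shock: 2 min in an unfamiliar context, then a floor-grid shock of 1 s at 0.5 mA, repeated to 3 shocks. The animals were returned to their cage after a further 1 min, and RNA was taken 6 h after the last shock. The labels name no transgene, and they leave unsaid whether an array held RNA of a pool of animals, so p-values here measure the spread between these arrays, which may be partly technical. No unconditioned group was analysed here, so each value below is a level 6 h after training and no effect of training was estimated.

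Microglia depend for their survival on the receptor kinase encoded by Csf1r and read a neuronal chemokine through the receptor encoded by Cx3cr1. C1qa, C1qb and C1qc encode the chains that assemble into C1q, the recognition molecule of the classical complement pathway, which in brain is made mainly by microglia and can tag synapses for removal. Cd68 encodes a glycoprotein of late endosomes and lysosomes used as a sign of phagocytic activity, and Aif1 encodes Iba1, the calcium- and actin-binding protein stained to show microglia in sections. The transcription factor PU.1, encoded by Spi1, is needed for the microglial lineage and binds a purine-rich element.

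C1qb, C1qc and C1qa are consecutive protein-coding genes on mouse chromosome 4 in the RefSeq annotation. RefSeq promoter windows on build GRCm38.p6 ran from 250 bases before to 50 bases after a start site. Those of 5 of the 7 genes were used: C1qb, C1qc, Cx3cr1, Cd68 and Aif1. C1qa had no window and Csf1r was left out of the search, so the counts below do not cover C1qa or Csf1r. The windows were searched on both strands for GAGGAAGT, a PU.1 element, for its shorter form AGGAAGT, which lies within it, and for the composite element of PU.1 and interferon regulatory factors. AGGAAGT was found in 2 of the 5 windows, C1qb and C1qc, and in 9.35% of all 32851 windows. GAGGAAGT was found in 1 of 5, C1qc, and in 3.2% of all windows. The bases upstream of the start of these neighbouring complement genes are shown because they hold those matches, which are in capitals and read in reverse complement. They lie at chr4:136886201-136886450 for C1qb and chr4:136892915-136893164 for C1qc, both on the minus strand and written 5′ to 3′.
C1qb: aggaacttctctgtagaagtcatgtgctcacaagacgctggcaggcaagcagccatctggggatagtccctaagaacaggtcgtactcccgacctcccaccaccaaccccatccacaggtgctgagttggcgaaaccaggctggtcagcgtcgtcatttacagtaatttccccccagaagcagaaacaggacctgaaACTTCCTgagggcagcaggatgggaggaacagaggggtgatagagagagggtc
C1qc: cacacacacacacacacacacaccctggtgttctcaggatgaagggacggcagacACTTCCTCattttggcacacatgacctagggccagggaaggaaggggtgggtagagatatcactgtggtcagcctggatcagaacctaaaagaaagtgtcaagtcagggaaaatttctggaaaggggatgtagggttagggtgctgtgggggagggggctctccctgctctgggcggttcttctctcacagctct
The C1qb match lay 47 to 53 bases before the start and the C1qc match 188 to 195 bases before it. The composite element was found in the Cd68 window, 24 to 33 bases after the start, and in 2.72% of all windows. These are matches of letters in a window and show no binding.

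Signals are given as deposited, on a linear intensity scale, as mean ± SD over the 3 arrays. A signal above 174.8, the median of all deposited values, is called above threshold. The threshold replaces a detection call. The highest signal of 15 control probe sets for bacterial transcripts was 115.2, so a signal between these values is weak and one below both shows no more than the controls do. Brightness differs between probe sets for reasons of design, so the genes are not ranked against each other. With each gene at its brightest probe set, 6 of the 7 genes were above threshold on all 3 arrays, against 52.9% of all named genes, and Aif1 was above it on 0 of 3. Counted by probe set, 6 of the 10 were above threshold on all arrays, against 43.9% of all probe sets other than controls.

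**Figure D1:**
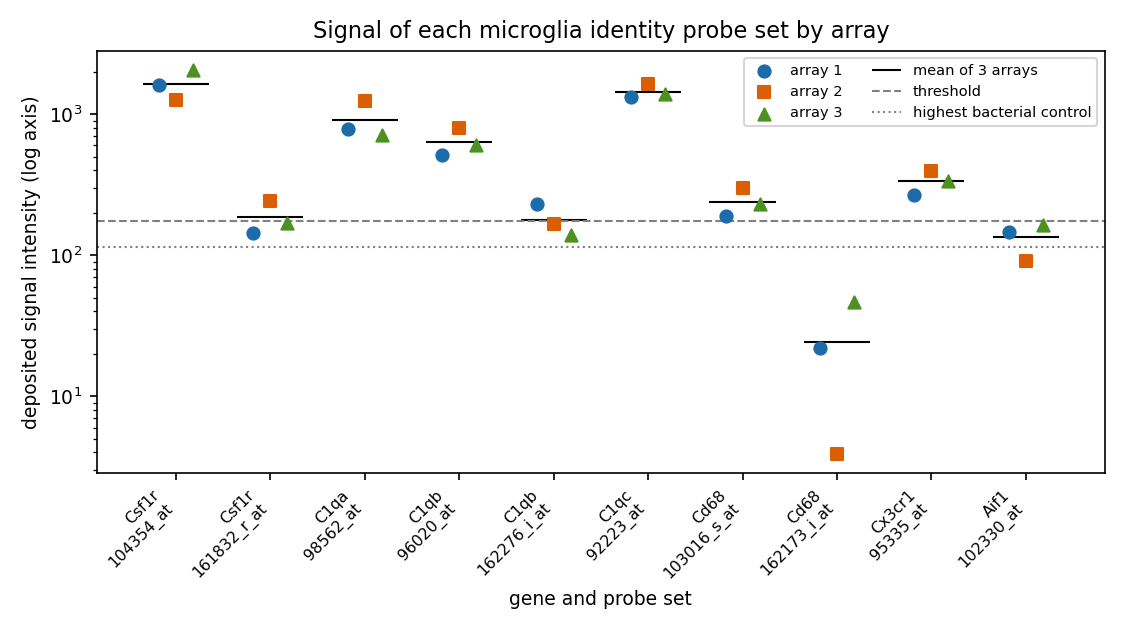
Deposited signal intensity (log axis) of the 10 probe sets of the 7 genes on arrays 1, 2 and 3, with the mean of the 3 arrays as a bar, the threshold of 174.8 dashed and the highest bacterial control, 115.2, dotted. The brightest probe sets of C1qa, C1qb, C1qc, Cd68 and Cx3cr1 were highest on array 2, those of Csf1r and Aif1 were lowest there, and Aif1 lay under the threshold on every array.

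Among the receptors, Csf1r gave 1616 on array 1, 1266 on array 2 and 2058 on array 3, a mean of 1647 ± 397 (SD, n = 3). Array 2 was the lowest and array 3 the highest, 1.68-fold apart once array medians had been equalised. Cx3cr1, the fractalkine receptor, gave 266, 397 and 337 on arrays 1, 2 and 3, a mean of 334 ± 65.7. Its order was different, with array 1 lowest, array 2 highest and a 1.49-fold span. The brightest probe sets of the genes for their ligands had narrower spans. Csf1, which encodes a ligand of the Csf1r product, gave 509, 479.9 and 498, a mean of 496 ± 14.7. Cx3cl1, which encodes fractalkine, made by neurons, gave 17431, 16770 and 17049, a mean of 17083 ± 332. The log2 ranges of these ligand probe sets were 0.10 and 0.07, against 0.75 for Csf1r and 0.57 for Cx3cr1. A second, much dimmer probe set of Cx3cl1 gave 201, 171 and 384, highest on array 3, with a log2 range of 1.21.

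All 3 complement C1q genes were highest on array 2. C1qa gave 779.8, 1247 and 713 on arrays 1, 2 and 3, a mean of 913 ± 291. Here array 2 stood above the other arrays, which were close to each other. C1qb gave 516, 796 and 604, a mean of 639 ± 143. C1qc gave 1313, 1635 and 1392, a mean of 1447 ± 168, the narrowest span of the 3, at 1.24-fold against 1.69-fold for C1qa and 1.54-fold for C1qb. C1qb and C1qc were lowest on array 1, while C1qa was lowest on array 3. The log2 deviations from the gene mean on array 2 were 0.48 for C1qa, 0.32 for C1qb and 0.16 for C1qc, so these genes shared the direction on that array but not the size.

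Of 23 listed complement components, receptors and regulators that act with or after C1q, 15 had a probe set of their own. C1s1, C3, C4a and C4b were among those without, so these components of the pathway were not read. The 15 genes were mostly under threshold. Of them, 4 passed the threshold on every array, against 52.9% of all named genes, and 9 on none. In the variance test described below 0 passed, against 0.0161% of measured probe sets. C1ra, which encodes a protease of the C1 complex, gave 233, 177 and 195.5, close to the threshold. C5ar1, a receptor for complement fragment C5a, gave 258, 295 and 266, and Cd59a, an inhibitor of the membrane attack complex, gave 358.5, 372 and 283. Clu, the gene of clusterin, a secreted complement regulator and chaperone, gave 9718, 9061 and 9970.1. C2, a later protease of the pathway, gave 123, 145 and 189, above threshold on array 3 alone. The integrin chains Itgam and Itgb2, which form complement receptor 3, gave 12.8, 31.8 and 14.9, and 30.7, 68.5 and 14.4, all under the highest bacterial control. Of the 5 complement genes above threshold on average, array 1 was the highest for 2, array 2 for 2 and array 3 for 1. Over all measured genes the shares were 28.8%, 32.6% and 38.6%.

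Cd68 gave 188.5, 300.2 and 232 on arrays 1, 2 and 3, a mean of 240.3 ± 56.3. Every array was above threshold, though array 1 only narrowly, and the span was 1.59-fold. Its probe set carries the suffix _s_at, which Affymetrix gives where the probes can match more than 1 transcript. Other genes of the lysosomal membrane did not share its order as a group. Lamp1, a major lysosomal membrane protein, gave 7153, 7719 and 7377, with a log2 range of 0.10. Lamp2 gave 229, 332 and 204 at its brightest probe set and 202, 181 and 154 at the other. Scarb2, the receptor that carries glucocerebrosidase to lysosomes, gave 485, 459.9 and 530.0, and the tetraspanin gene Cd63 gave 1414, 1468 and 1045.5. Of the 5 measured genes of this list 3 were highest on array 2, against 32.6% of all measured genes. The list's median log2 shift there was 0.06.

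Aif1 gave 147, 91.6 and 164, a mean of 134 ± 37.9, under threshold on all arrays. Arrays 1 and 3 lay above the highest bacterial control and array 2 below it, so the order of the arrays rests on a weak signal. The protein that this gene encodes is the usual stain for microglia, and its 1 probe set here gave little signal to work with.

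Of the 7 genes, 3 had a second probe set, and in 0 of those 3 did it peak on the same array as the brightest. The second probe set of Csf1r gave 144, 244 and 168, a mean of 185.5 ± 52.0, highest on array 2, where the brightest was lowest. The second probe set of C1qb gave 232, 166 and 139, a mean of 179 ± 47.9, highest on array 1, where the brightest was lowest. The second probe set of Cd68 gave 22.1, 3.9 and 46.4, within the range of the bacterial controls. These dimmer probe sets have the suffixes _r_at or _i_at, used where probe-selection rules were relaxed or fewer probes than usual were available. Such disagreement was common on these arrays. Of 675 genes whose brightest and second probe set were both above threshold on average, 247, or 36.6%, were highest on the same array by both. Where both probe sets also had a log2 range over 0.5, it was 78 of 171, or 45.6%. The array on which a probe set is highest is thus reported as a description of that probe set.

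To set the spread of each gene beside that of the whole array, array medians were equalised and the log2 range was taken over the 3 arrays. A gene was called measured when its mean was above threshold, which held for 6 of the 7 genes and left out Aif1. Of these 6 genes, 0 had a highest and lowest array more than 2-fold apart, against 10.2% of 4876 measured genes. Their log2 ranges ran from 0.31 for C1qc to 0.76 for C1qa, with a median of 0.64, and the median over all measured genes was 0.47. Between arrays, 21.5% of measured genes had a larger range than C1qa and 72.8% a larger one than C1qc. In the limma variance test, which asks whether the variance of a probe set exceeds that of others of similar brightness, 0 of the 6 genes passed after Benjamini-Hochberg adjustment over 6218 measured probe sets, against 0.0161% of all of these. At an unadjusted p under 0.05 there were also 0 of 6, against 5.21% of probe sets. The lowest adjusted p, 0.971, belonged to C1qa and Csf1r, with unadjusted p of 0.146 and 0.162. A miss of the threshold with 3 arrays does not show that the levels were equal.

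**Figure D2:**
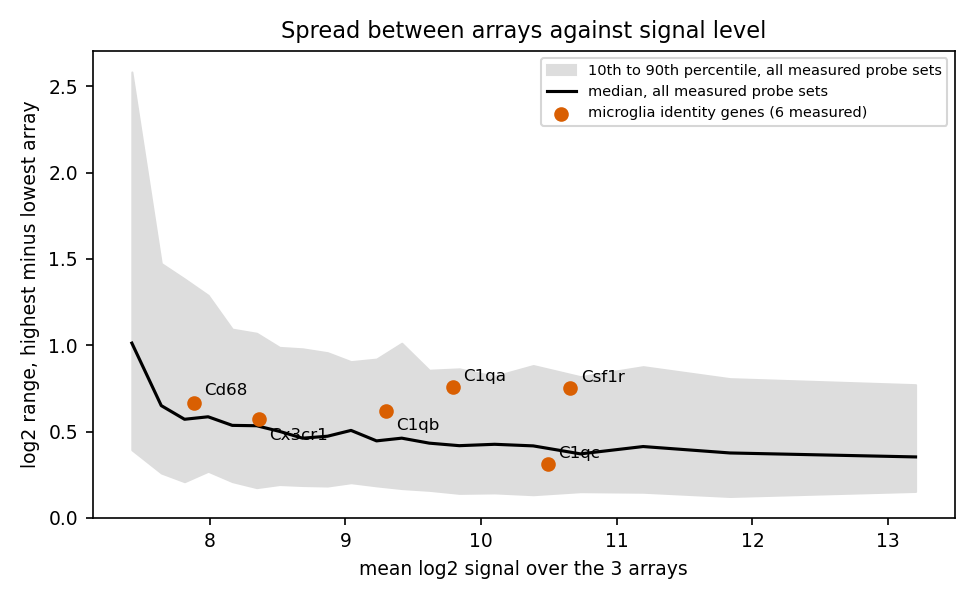
Log2 range between the highest and lowest array (vertical axis) against mean log2 signal (horizontal axis), with the median of all measured probe sets as a line, their 10th to 90th percentile shaded in 20 bins of level, and the 6 measured microglia identity genes as points. The 6 points lie inside the shaded band, from 0.31 for C1qc to 0.76 for C1qa.

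Across the arrays, 5 of the 6 measured genes were highest on array 2, against 32.6% of measured genes, 1 on array 3, against 38.6%, and 0 on array 1, against 28.8%. The lowest array was array 1 for 4 of them, against 29.9%, array 2 for Csf1r, against 43.1%, and array 3 for C1qa, against 27%. With Aif1 counted, 5 of all 7 were highest on array 2. For each gene the shift of an array was its log2 signal less the average over the remaining arrays. The median shift of the 6 genes was -0.37 for array 1, 0.43 for array 2 and -0.01 for array 3. The array 2 value was 0.25 without array 1 and 0.60 without array 3, and the array 1 value was -0.60 without array 3. Without array 2, 5 of the 6 genes were higher on array 3 than on array 1. Over all measured genes, with all 3 arrays, the median shifts were 0.00, -0.06 and 0.06. The profiles of C1qb and Cd68 were the closest pair, at a Euclidean distance of 0.05 over their 3 log2 deviations, and Cx3cr1 lay 0.10 from Cd68. Csf1r was the member farthest from the median profile, at 0.80, and lay 1.09 from C1qa. No test was made of these shifts, since the genes were chosen with earlier results of these arrays known. In bulk tissue, more microglia and more RNA per microglial cell cannot be told apart.

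Array 2 also stood apart in a control ratio, and arrays 2 and 3 differed in markers of tissue next to CA1. These values stand beside the shift. The ratio of 3′ to 5′ signal for the control gene Gapdh was 1.21 on array 2, against 3.99 on array 1 and 3.94 on array 3. For Actb it was 2.57, 1.86 and 3.50. The highest bacterial control signal was 115.2 on array 2, against 54.1 on array 1 and 55.6 on array 3. Of 6 markers of choroid plexus and ependyma with a probe set, 4 were measured. All 4 were highest on array 2, against 32.6% of all measured genes, and the summed signal of the 6 was 3879, 7580.2 and 2360.1. The median log2 shift of the 4 was 0.75 on array 2 and -0.74 on array 3. Ttr, the choroid plexus product transthyretin, gave 1334, 4257 and 94.2, with log2 shifts of 1.06, 3.56 and -4.61. In the limma variance test 1 of these genes passed, Ttr, with an adjusted p of 0.049, the 1 probe set called of all 6218, and 2 had an unadjusted p under 0.05. Of 5 CA1 pyramidal markers on the array, all 5 passed the threshold on each array, against 52.9% of all named genes. Their summed signal was lowest on array 2, at 12229, 9876.5 and 12029. Wfs1 was close to level at 2532, 2452 and 2582, Dcn gave 3498, 2382 and 2638, and Ccn3, named after its values were seen, gave 4488, 3218 and 4949. Pou3f1, a transcription factor gene, went the other way, at 557, 720 and 460, and Man1a gave 1154, 1104 and 1400 at its brightest probe set. The median log2 shift of these 5 genes on array 2 was -0.23, and the limma variance test called 0 of them, with 0 at an unadjusted p under 0.05. Whether RNA integrity or the tissue content of an array has a part in the shift of the identity genes was not tested.

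The measured genes of a further microglia list did not follow the same order. Among 8 further homeostatic microglia genes with a probe set, 5 were measured. Of those not measured, Slc2a5 had a mean of 171, narrowly under threshold. It gave 170, 192 and 151 on arrays 1, 2 and 3, highest on array 2. Tgfbr1 and Tgfbr2 were under the highest bacterial control on every array. On array 1 Tgfbr2, at 55.9, was narrowly over that array's own highest control, 54.1. The 5 measured genes, of 8, all passed the threshold on every array, against 52.9% of all named genes. All 5 were highest on array 1, against 28.8% of all measured genes and 0 of the 6 identity genes. The margin was small for Ctss, with log2 deviations from the gene mean of 0.11 on array 1 and 0.08 on array 3. It was also small for Mertk, at 0.13 on array 1 and 0.09 on array 2. Selplg, the gene of a selectin ligand, gave 1278, 1011 and 996 on arrays 1, 2 and 3. Ctss, the lysosomal protease cathepsin S, gave 2826, 2313 and 2682. Rgs10, a regulator of G protein signalling, gave 671, 496 and 555, its second probe set kept that order at 409, 297 and 369.5, and its dimmest, under threshold on every array, gave 74.5, 121 and 35, highest on array 2. Ly86, whose product is the partner of the Toll-like receptor relative Cd180, gave 409.5, 345 and 285, and the phagocytic receptor gene Mertk gave 288, 281 and 218. Their median log2 shifts for arrays 1, 2 and 3 were 0.33, -0.19 and -0.14, against -0.37, 0.43 and -0.01 for the identity genes. Their log2 ranges were narrower, with a median of 0.36. In the limma variance test 0 passed and 0 had an unadjusted p under 0.05, against 0.0161% and 5.21% of measured probe sets. Without array 1 the shift of these genes on array 2 was -0.03. The difference between the lists was not tested.

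**Figure D3:**
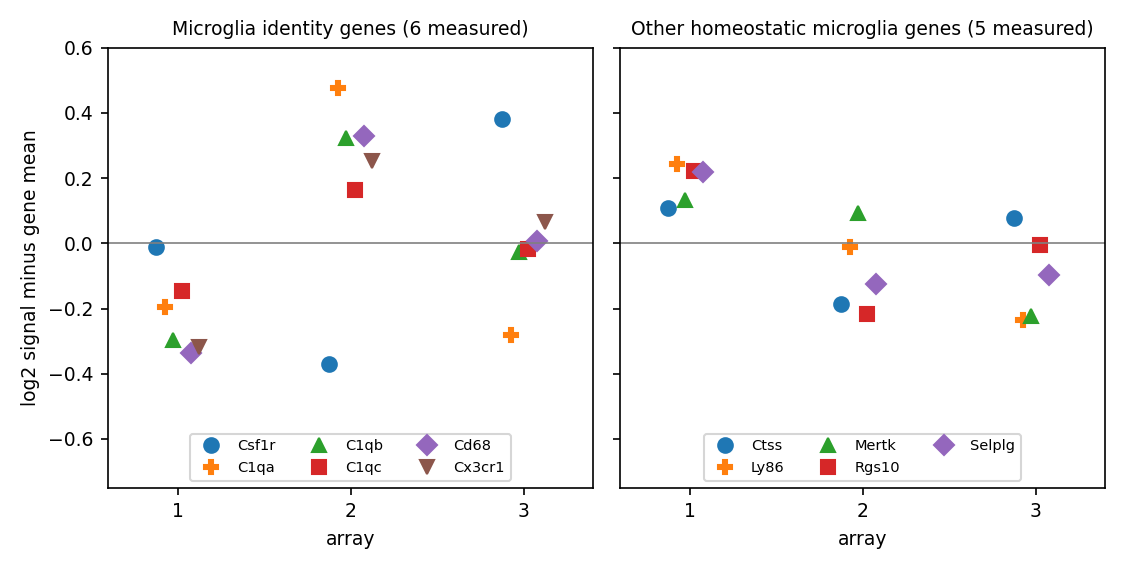
Log2 signal minus the gene's mean (vertical axis) on arrays 1, 2 and 3, for the 6 measured microglia identity genes (left) and the 5 other measured homeostatic microglia genes (right), with 1 symbol per gene. On array 2 the identity genes lie above 0 except Csf1r, and on array 1 all 5 of the other genes lie above 0.

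Genes that microglia share with other macrophages were in part near or under background. Of 21 on the array, 8 passed the threshold on every array, against 52.9% of all named genes, and 10 on none. Tyrobp, the signalling adaptor DAP12, gave 749, 617 and 526. Coro1a, an actin regulator of leukocytes, gave 1832, 1164 and 1499. Laptm5, a lysosomal protein of blood cells, gave 755, 778 and 899.6 at its brightest probe set and 733, 505 and 613 at the other. Cd14, the co-receptor for lipopolysaccharide, gave 443.5, 439 and 654.5, and Cyba, a subunit of the phagocyte oxidase, gave 283, 433 and 403 at its brightest probe set and 227, 54.9 and 192 at the other. Ptprc, the pan-leukocyte marker CD45, gave 11.5, 12.4 and 36.6 at its brightest probe set, and Fcer1g gave 33.0, 15.8 and 14.1, under the highest bacterial control. Array 1 was the highest for 5 of the 10 measured genes, array 2 for 1 and array 3 for 4. Over all measured genes the shares were 28.8%, 32.6% and 38.6%. The median log2 shifts of the 10 genes were 0.27, -0.30 and 0.23, the opposite sign of the identity genes on arrays 1 and 2. The limma variance test called 0 of these genes, with 0 at an unadjusted p under 0.05, against 0.0161% and 5.21% of measured probe sets.

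Transcription factor genes of the myeloid lineage were measured for 7 of 12 genes with a probe set, near the share over all named genes, 4876 of 8251. Spi1 gave 129, 246 and 181, above threshold on arrays 2 and 3 and lowest on array 1, as C1qb, C1qc, Cd68 and Cx3cr1 were. Irf8, a partner of PU.1 in microglia, gave 80.5, 154 and 202, above threshold on array 3 alone. Cebpa and Cebpb, which also act in other cell types, gave 895, 955 and 887, and 429, 562 and 473. Of the 7 measured genes 5 were highest on array 2, against 32.6% of all measured genes, and the median log2 shifts were -0.22, 0.34 and -0.01. In limma 0 passed the variance test, and 2 had an unadjusted p under 0.05, against 5.21% of measured probe sets. The 2 were Mef2a and Mef2c, which neurons express as well. At their brightest probe sets, Mef2a gave 2953, 2352 and 1118.5 and Mef2c gave 247, 302 and 11.5, both lowest on array 3. A second Mef2c probe set, nearly as bright, gave 159, 346 and 40, with an unadjusted p of 0.075 in the limma variance test. Its dimmer probe sets gave 80, 133 and 58.3, and 90.1, 79.9 and 74.1, all under threshold.

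Of 14 genes raised in reactive or phagocytic microglia, 7 passed the threshold on every array, near the 52.9% of all named genes. Most of the bright ones are not specific to microglia. Apoe, made mainly by astrocytes in healthy brain, gave 20985, 26794 and 17963. Lpl, the lipoprotein lipase gene, gave 286, 291 and 614 at its brightest probe set and 198, 101 and 242 at the other. Cst7, a cystatin gene of disease-associated microglia, gave 14.7, 35.1 and 16.4, under the highest bacterial control on each array. Itgax, the integrin chain CD11c, gave 184, 100.2 and 277. Array 2 was the highest for 6 of 8 measured genes, against 32.6% of all measured genes, and the median shift of the 8 there was 0.31. In limma 0 passed the variance test and 1 had an unadjusted p under 0.05, against 5.21% of measured probe sets. That gene was Ctsd, the lysosomal protease cathepsin D, at 2343, 4529 and 2493, named after its values were seen. Inflammatory cytokine genes and their receptors were mostly under threshold, with 1 of 13 above it on all arrays, against 52.9% of all named genes, and 11 on none. Il1b gave 5.8, 14.2 and 22.9, Tnf gave 32.9, 30.9 and 31.4, and Il6 gave 15.7, 10.9 and 5.5, all under the highest bacterial control.

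The 7 identity genes are also expressed by macrophages outside the brain tissue proper and by some blood cells, so markers of those cells were read on the same arrays. Of 4 markers of perivascular and meningeal macrophages, 0 passed the threshold on every array, against 52.9% of all named genes. The defining marker Mrc1, the mannose receptor gene, gave 26.4, 9.6 and 45.8, under each array's own highest bacterial control. Lyve1 gave 68.8, 9 and 62.8, above that array's own control on arrays 1 and 3. Pf4 gave 16.1, 17.4 and 80.6, above it on array 3, while Cbr2 gave 240, 133.5 and 72.9. These genes had 0 measured members, so their order over the arrays is not read, and their summed signal was 351, 169.5 and 262. Of 11 monocyte and granulocyte genes 2 were above threshold on all arrays, against the same 52.9%, and 7 on none. The monocyte receptor gene Ccr2 gave 24.6, 88.5 and 93.2, and the granulocyte gene S100a9 gave 13.2, 46.0 and 25.5. The 2 above threshold throughout, named after their values were seen, were Elane, the neutrophil elastase gene, at 358.5, 331 and 215, and Fn1, the fibronectin gene, which other cell types express as well, at 769.9, 725 and 732. The summed signal of that list was 1840.0, 1824.5 and 1571. Lymphocyte markers were above threshold on all arrays for 2 of 9 genes, again against 52.9%, and summed to 893, 1075 and 1039. The T cell receptor component Cd3e gave 26.2, 34.8 and 39.1, under the highest bacterial control, while the co-receptor gene Cd4, which some macrophages express too, gave 237, 346.5 and 367. The B cell genes Ms4a1 and Cd79a, named after their values were seen, gave 279, 243 and 285, and 232, 254 and 162, at their brightest probe sets. A second probe set of Ms4a1 gave 58.7, 109.5 and 50.6, and the B cell gene Cd79b gave 31.1, 22.4 and 26.7. These lower signals were all under the highest bacterial control. Whether blood cells have a part in the levels of the identity genes was not tested.

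Markers of other cell types were not level between the arrays either. The median log2 shift on array 2 was 0.03 for 7 astrocyte genes, 0.20 for 6 oligodendrocyte genes and 0.75 for the 4 choroid plexus and ependyma genes, beside 0.43 for the identity genes. Array 2 was the highest for 4 of the 6 oligodendrocyte genes and 2 of the 7 astrocyte genes, against 32.6% of all measured genes. Mag, a myelin glycoprotein gene, gave 525, 1037 and 583, a log2 shift on array 2 of 0.88. At their brightest probe sets, the myelin genes Mbp and Mog had shifts there of 0.22 and 0.36. The astrocyte water channel gene Aqp4 gave 1072, 1264 and 531, a shift of 0.72. Gfap, another astrocyte gene, went the other way at 2050, 1420 and 2144, a shift of -0.59. The astrocyte genes Slc1a2 and Glul had shifts of 0.54 and 0.03 at their brightest probe sets. Mobp, another myelin gene, had a shift of -0.15 at its brightest probe set and of 1.51, 1.80 and 0.73 at 3 dimmer ones. Whether the makeup of the tissue has a part in these shifts was not tested.

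**Figure D4:**
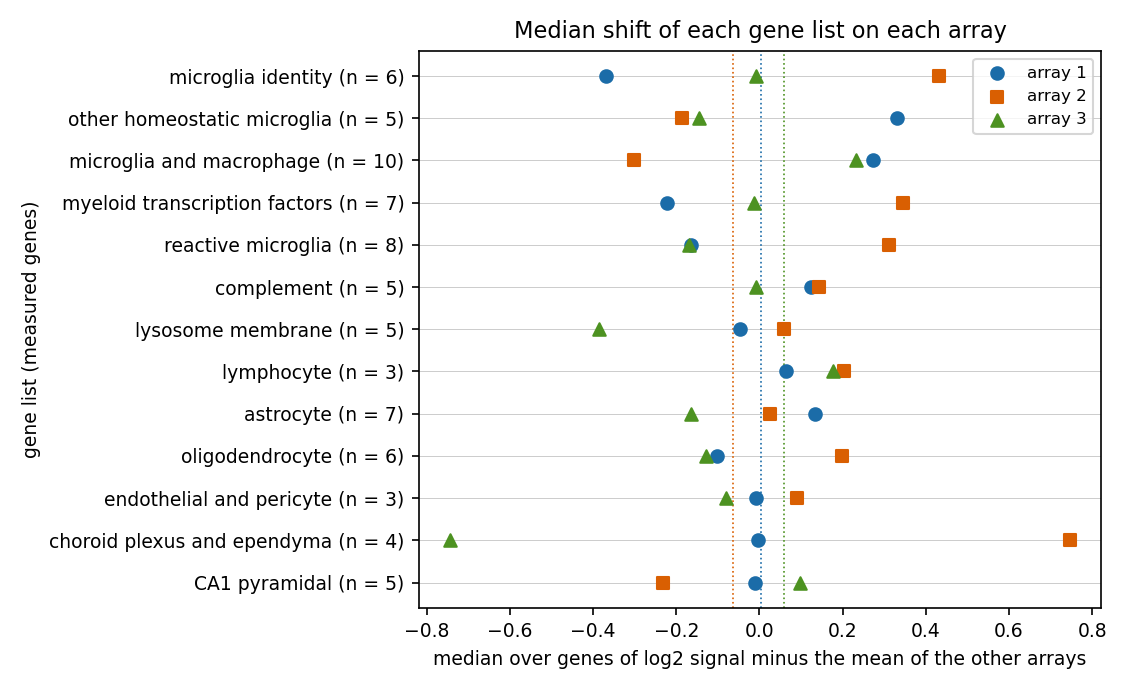
Median over the measured genes of each list of the shift of each array, its log2 signal less the average over the remaining arrays (horizontal axis), for arrays 1, 2 and 3, with dotted lines at the medians over all measured genes. The microglia identity list lies at -0.37, 0.43 and -0.01, the other homeostatic microglia list at 0.33, -0.19 and -0.14, and the choroid plexus and ependyma list at 0.75 on array 2 and -0.74 on array 3.

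The genes whose 3 log2 deviations lay nearest to the median profile of the 6 measured identity genes were Smdt1, Adam3, Kat7, Ung and Dazap1. Their Euclidean distances over the 3 arrays were 0.028, 0.029, 0.031, 0.031 and 0.037. Smdt1, which encodes a regulator of the mitochondrial calcium uniporter, gave 4101, 5913 and 4745, and Kat7, a histone acetyltransferase gene, gave 954, 1419 and 1102.5. In all, 418 of 4870 other measured genes lay within 0.2 of the profile, whereas Csf1r and C1qa did not. With 3 arrays such nearness is a description of these hybridisations.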

How the data were processed

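The deposited values are linear signal intensities, 1 for each probe set on each array. How the authors computed and scaled these intensities is not given in the sources used here. Detection calls were not analysed here. Each array's mean after trimming 2% at each end was 500.3, so the arrays were on a common scale. Median signals ran from 171 to 177, any pair of arrays shared 6 to 18 identical values, and the table had 0 columns beyond the 3 arrays.

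Gene names came from the platform annotation, matched to the GRCm38.p6 RefSeq gene table by Entrez identifier. Of 12488 probe sets 66 were controls and 396 with several genes were not used. For spreads, arrays were multiplied by 0.991, 0.987 and 1.02 to a common median, floored at 47.5, the 25th percentile of all values, and log2-transformed. A gene was represented by its brightest probe set. The variance test compared each variance with a robust trended prior in limma 3.58.1, R 4.3.3 (winsor tails 0.05 and 0.1). Its upper-tail p-values received Benjamini-Hochberg adjustment over all measured probe sets, with a threshold of 0.05. The test was checked on simulated data. The 7 genes, the other gene lists and the threshold were chosen with earlier results of these data known. Genes named by rule are all 7 identity genes and any gene of the ligand, complement, microglia, macrophage and transcription factor lists. So are the first 4 of each other list with a probe set, list genes past the variance test and the 5 nearest profiles. Outside this rule, Ccn3, Ctsd, Elane, Fn1, Ms4a1, Cd79a and Cd79b were named after their values were seen. Alternatives covered scaling, floor, threshold, prior, choice of probe set and leaving out each array. Precision is limited by having 3 arrays.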

Additional observations from a re-analysis of the deposited data

How the results depend on the processing

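No paired analysis was possible because the labels give 1 group. In the limma variance test 0 identity genes passed under each of the 14 alternatives, and the lowest adjusted p among them ran from 0.870 to 1. Over the alternatives that kept all 3 arrays, the median shift of the identity genes stayed between -0.38 and -0.26 on array 1 and between 0.31 and 0.46 on array 2. Leaving out an array gave -0.60 to -0.31 on array 1, 0.25 to 0.60 on array 2 and -0.25 to 0.31 on array 3, so the array 3 value changed sign with the array left out. Without array 2, 5 of 6 genes were higher on array 3 and 1, C1qa, on array 1. Without array 3, 1 gene, Csf1r, was higher on array 1 and 5 on array 2. Over left-out arrays the number highest on array 3 ran from 1 to 5, and on array 1 it was 1. With a threshold at the 75th percentile 4 identity genes were measured, 3 were above threshold on all arrays and 3 were highest on array 2. With a threshold at the 25th percentile or none, Aif1 was included and 2 genes were highest on array 3. Averaging all measured probe sets of a gene turned the array 1 shift of C1qb from -0.45 to 0.07 and the array 2 shift of Csf1r from -0.55 to 0.03.

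For the other homeostatic microglia genes the alternatives were applied after the data were seen. Their array 1 shift ran from 0.21 to 0.35. The number highest there was 3, of 3 measured, at the 75th percentile threshold, 5 of 6 at the 25th percentile threshold and without array 3, and 6 of 8 with no threshold. Their array 2 shift was -0.03 without array 1. Weak signals limit what can be read for Aif1, Spi1 and the second probe sets of the identity genes.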
